A study of Mus musculus with 12 samples.

Results

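The 46 genes described here encode the extracellular matrix of collagens, glycoproteins and proteoglycans, the enzymes that cut and cross-link it, and the integrins and other receptors by which cells hold on to it. They are given as a named list, and each gene was taken as the probe sets (short oligonucleotide sets on the array) whose only gene symbol in the platform annotation is that gene. Of the 46 genes, 44 had such a probe set, out of 18193 genes named on the array, and together they had 120 of its 45037 probe sets. Fbn1 and Loxl2 were not analysed here. Of the 44, 35 had enough signal to be tested, and 9 did not.

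RNA was measured on 12 Affymetrix mouse arrays, with 3 arrays in each of 4 groups. HM1 cells are male mouse embryonic stem cells that have lost a working Hprt gene. CAG150 cells are mouse embryonic stem cells with expanded CAG repeats, and, by what is known of the study, these repeats are in the Huntington's disease gene Htt. Cells of both lines had been put through neuronal differentiation for 4 or 6 days, so the groups are HM1 at day 4, HM1 at day 6, CAG150 at day 4 and CAG150 at day 6. There is 1 line of each kind, so the repeat cannot be told apart from anything else in which the lines differ. The groups follow the sample titles. The descriptions of the HM1 day 6 samples name the earlier day, and those of all day 6 samples carry the same replicate number. The labels do not say if samples sharing a group came from separate cultures. The p-values are therefore relative to the spread among these samples, which may be technical only.

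The extracellular matrix is built from fibrillar collagens, which form cables, and from adhesive glycoproteins such as fibronectin, which link those cables to integrins on the cell surface. Metalloproteinases and plasminogen activators cut the matrix, and tissue inhibitors of metalloproteinases (TIMPs) hold the cutting in check. In the early embryo the matrix is made in large part by endoderm and mesenchyme, while neuroepithelium rests on a basement membrane and developing brain tissue is comparatively rich in proteoglycans such as versican.

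Values are deposited intensities, which have no unit. Group values are means ± SD of 3 arrays, and array values are given in the order of the replicate numbers, which carry no ranking. A difference is one of log2(intensity + 16), given ± SE, and each fold is computed from it. A negative difference means lower in CAG150 than in HM1, or lower at day 6 than at day 4. Such folds understate the change of dim genes, since 16 was added to every value. Adjusted p is from limma over 12280 genes, and the threshold for passing was 0.05. Where a gene has several probe sets, the brightest was used. The number of arrays limits the precision. Levels are not compared between genes.

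Promoter sequence is shown for 5 members whose level differed widely between groups and whose promoter in the RefSeq table (build GRCm38.p6) begins at the gene's annotated start. Each run holds the 150 bases before the start, 5′ to 3′ on the gene's strand. Capitals mark a GC box (GGGCGG on either strand) or the letters TATAAA (on either strand).
Timp3, chr10:86300262-86300411, plus strand: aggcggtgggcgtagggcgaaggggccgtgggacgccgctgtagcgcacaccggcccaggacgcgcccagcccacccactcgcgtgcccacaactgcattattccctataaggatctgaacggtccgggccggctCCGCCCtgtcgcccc
Col18a1, chr10:77166531-77166680, minus strand: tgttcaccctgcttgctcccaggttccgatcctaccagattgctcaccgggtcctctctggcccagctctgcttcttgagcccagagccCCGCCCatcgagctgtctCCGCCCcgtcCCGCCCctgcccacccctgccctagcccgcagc
Itgb5, chr16:33829515-33829664, plus strand: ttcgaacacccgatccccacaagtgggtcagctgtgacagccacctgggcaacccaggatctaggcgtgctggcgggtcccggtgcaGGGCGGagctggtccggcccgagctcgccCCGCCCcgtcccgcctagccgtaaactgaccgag
Col3a1, chr1:45311388-45311537, plus strand: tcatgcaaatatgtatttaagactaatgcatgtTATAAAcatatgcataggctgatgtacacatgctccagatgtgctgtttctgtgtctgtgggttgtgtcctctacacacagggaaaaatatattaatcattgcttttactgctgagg
Vtn, chr11:78498970-78499119, plus strand: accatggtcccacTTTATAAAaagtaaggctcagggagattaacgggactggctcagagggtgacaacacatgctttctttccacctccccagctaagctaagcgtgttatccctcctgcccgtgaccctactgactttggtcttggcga
Position -1 is the last base before the start, and a motif is placed by its first base. Timp3 has 1 GC box, at -15. Col18a1 has 3, at -61, -43 and -33, and Itgb5 has 2, at -63 and -34. Col3a1 has no GC box and holds TATAAA at -117. Vtn has no GC box, and its capitals hold overlapping matches of TATAAA on both strands, at -137 and -135. In these data, Timp3 and Col18a1 were lower in CAG150 at both days, Vtn rose with time in both lines, Itgb5 and Col18a1 fell with time in both lines, and Col3a1 rose with time in HM1, as given with the values. Of the 35 tested members 24 have a promoter in the table, with 29 promoters in all. A GC box stands in 16 of the 29, against 28.6% of all 32851 promoters in the same window. TATAAA stands in 4 of the 29, against 7.57% of all, and CCAAT in 7, against 24.5%. CATTCC, the core of the site for TEAD factors, stands in 3, against 7.59%. TGAGTCA, an AP-1 site, is in 0 of the 29, against 2.84% of all, and the CArG box in 0, against 0.916%. All motifs were searched on both strands. A match describes letters and does not show a bound factor, and a window without the letters says nothing about the factor.

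At day 4, matrix and adhesion genes that differed between the lines were mostly lower in CAG150. Thbs1 (thrombospondin-1, a matricellular glycoprotein), Itga3 (the integrin subunit alpha 3, of a laminin receptor) and Timp3 (a matrix-bound inhibitor of metalloproteinases) were lower by more than 2-fold, beside 1.41% of all genes, and 0 members were higher by that much, beside 0.366%. Of the 35 tested members, 9 were lower and 1, Fbln2, was higher. This is 28.6% of them, beside 15.8% of all genes tested, of which 7.92% were lower and 7.87% higher. Fbln2 was above the signal filter only through CAG150 at day 4, so its call comes with the choice of tested genes. The median difference of the members was -0.20, against 0.01 over all genes, and it became -0.08 with the mean of each gene's probe sets, -0.13 with 64 added and -0.12 with no filter. The groups did not overlap for 13 members lower and 4 higher in CAG150, beside 17.1% and 17.3% of all genes.

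At day 6, 16 of the 35 members were lower in CAG150 and 0 were higher. The passing share was 45.7%, beside 21.4% of all genes tested, of which 11.2% were lower and 10.1% higher. The median difference was -0.46, against 0.00 over all genes, and 30 of 35 differences were negative. Among these 30 are Col1a1 and Tnc, which did not pass and were above the signal filter only through HM1 at day 6. Their negative differences thus come with the choice of tested genes. With the mean of each gene's probe sets the median was -0.25, and with 64 added -0.22. Timp3, Col3a1, Thbs1, Itga3 and Col18a1 were lower by more than 2-fold, and 0 members were higher by that much. Of all genes, 1.81% were lower and 0.651% higher past that fold. The groups did not overlap for 21 members lower, Col1a1 among them, and 1 higher, beside 19.8% and 18.8% of all genes. Both days used different samples of each line. Lower at both were Col2a1, Col11a1, Col18a1, Fn1, Thbs1, Itga3, Plat and Timp3, which is 8 of the 35 members, beside 4.63% of all genes. At both days 0 members were higher, beside 3.79%.

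From day 4 to day 6, members moved in both directions. In HM1, 8 rose and 10 fell, which is 51.4% of those tested, beside 38.9% of all genes (20.4% higher, 18.5% lower). In CAG150, 4 rose and 12 fell, which is 45.7%, beside 44.4% of all genes (22.5% higher, 21.9% lower). Col1a1, among the 8 rises in HM1, was above the signal filter only through HM1 at day 6. Fbln2, among the 12 falls in CAG150, was above it only through CAG150 at day 4. Both calls thus come with the choice of tested genes. The medians were 0.10 in HM1 and -0.10 in CAG150. Over the other settings run, the median of HM1 ranged from -0.12 to 0.16. It changed sign with a filter at the 60th percentile, with median centring and with the mean of probe sets. It was 0.16 with 1 added and without HM1 day 6 replicate 1, and 0.15 without HM1 day 4 replicate 3. The median of CAG150 ranged from -0.29 to -0.05. It was -0.17, -0.05 and -0.22 without replicate 1, 2 or 3 of CAG150 day 4 and -0.17 without replicate 2 of CAG150 day 6. The days did not overlap for 11 members that were higher and 12 that were lower at day 6 in HM1, beside 24.8% and 24.3% of all genes, and for 6 and 13 in CAG150, beside 27.4% and 27.6%. Past 2-fold, 2 rose and 3 fell in HM1, beside 3.66% and 1.37%, and 1 rose and 4 fell in CAG150, beside 4.33% and 2.24%. Fbln2 is among these 4 falls too. In both lines, 8 members fell (Col1a2, Col18a1, Fbln1, Fbn2, Itga6, Itgb5, Cd44 and Mmp2) and 3 rose (Vtn, Itgav and Plat), beside 13.8% and 15.3% of all genes. Vcan, which encodes versican, was the 1 member that rose in HM1 and fell in CAG150, as did 0.269% of all genes.

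The test of whether the day difference itself differed between the lines was passed by 4 members, Col3a1, Fbln2, Vcan and Thbs1. This is 11.4% of those tested, beside 3.61% of all genes (1.58% higher, 2.03% lower). It is computed from the same arrays as the other comparisons, which are therefore not independent of it. Fbln2 was above the signal filter only through CAG150 at day 4, so its call here, too, comes with the choice of tested genes. In all, 8 of the 35 members passed in no comparison.

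**Figure D1:**
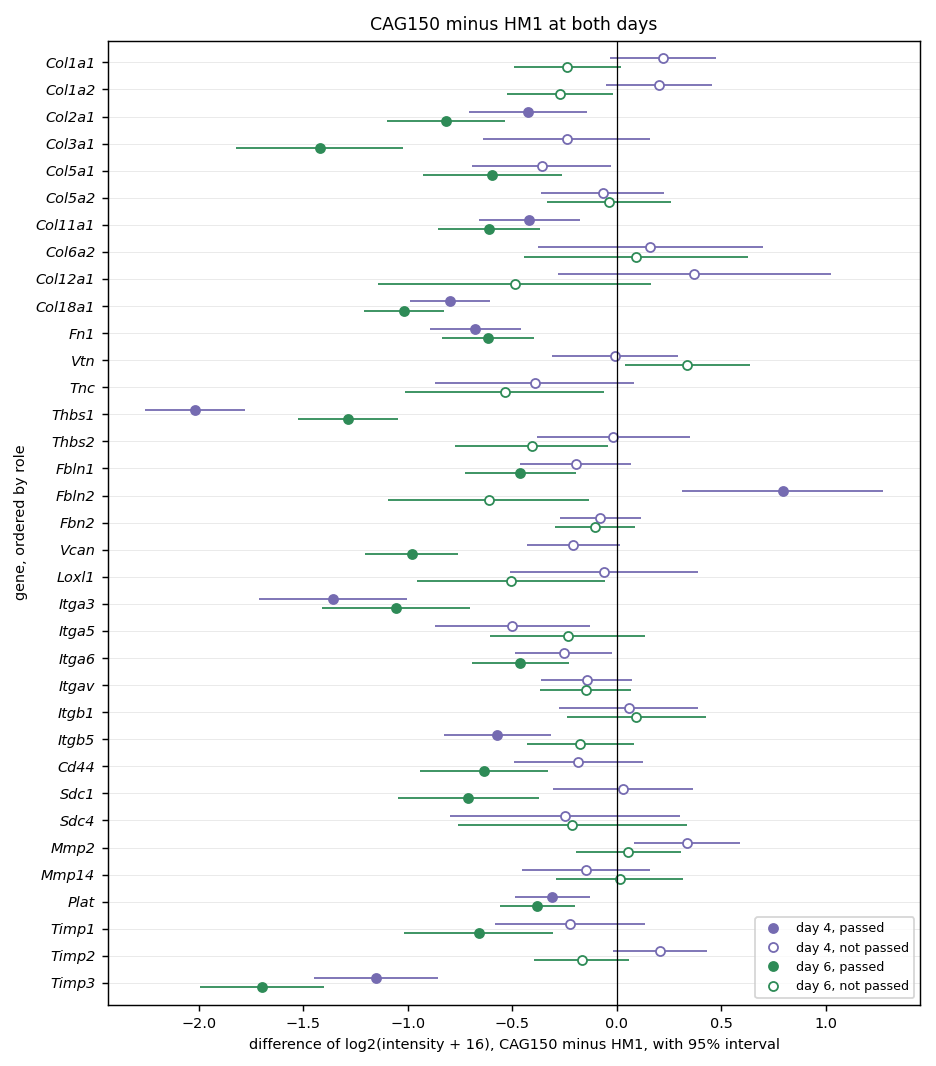
The difference of log2(intensity + 16), CAG150 minus HM1, of each tested member at day 4 and at day 6, with its 95% interval; filled points passed the test. Most filled points lie left of 0, with 9 of 10 at day 4 and 16 of 16 at day 6.

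The array-wide scaling bears on the balance of directions. Centring each array on its median turned the 967 higher and 973 lower genes of day 4 into 534 and 1165, and those of day 6 from 1243 and 1381 into 811 and 1617. For HM1 over time, 2500 and 2273 became 1750 and 3085, and for CAG150, 2760 and 2693 became 1974 and 3474. The centring moved the median over all genes to -0.11 in HM1 over time and to -0.10 in CAG150. Quantile normalization gave 2186 higher and 2579 lower genes for HM1 over time and 2459 and 3058 for CAG150. No member call changed direction under any of these settings.

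Genes of other cell types moved with the groups as well. The marker counts below stand beside 7.92% of all genes lower and 7.87% higher in CAG150 at day 4, and 11.2% and 10.1% at day 6. The summed intensity of 20 fibroblast and smooth muscle markers, of which 13 were tested, was 9354 to 10464 on the HM1 and 4773 to 4861 on the CAG150 arrays at day 4, and 15084 to 17231 and 7862 to 8552 at day 6. Of the 13, 8 were lower in CAG150 at each day, and 1 was higher at day 6. Most of the sum is Vim, Cald1, Acta2 and Tagln. The marker higher at day 6 was Prrx1 (0.69, adjusted p = 0.0021), and Pdgfra and Twist2 passed at neither day. Vim, vimentin, which neural progenitors express as well, averaged 2920 and 2754 in HM1 and CAG150 at day 4 and 7845 and 6665 at day 6, and passed at neither. Without it the sums were 6529 to 7177 and 2051 to 2079 at day 4, and 7890 to 9086 and 1473 to 1718 at day 6. Acta2, smooth muscle actin, averaged 1608 and 249 at day 4 and 2890 and 162 at day 6, and Tagln, transgelin, 1382 and 63.9, then 1762 and 38.2. Cald1 averaged 2560.5 and 1096 at day 4 and 2732 and 1029 at day 6. Acta2, Tagln and Cald1 were lower in CAG150 at each day. Myh11, Fap, S100a4, Dcn, Pdgfrb, Des and Tcf21, also on that list, lay below the signal filter. For 19 markers of early endoderm, of which 12 were tested, the sums were 2451 to 2648 in HM1 and 1150 to 1212 in CAG150 at day 4, and 3174 to 3483 and 1203 to 1376 at day 6, with 6 and 7 lower in CAG150 and 0 higher. Much of that sum is Sparc, Lama1 and Lamb1, which are matrix genes themselves. Without these 3 the sums were 288 to 344 and 194 to 249 at day 4, and 523 to 544 and 264 to 313 at day 6. Of the markers that are no matrix genes, Krt19, Dab2 and Foxa2 were lower in CAG150 at both days and Sox17 at day 6. The other tested ones, Gata4, Gata6, Hnf4a, Cubn and Pdgfra, passed at neither day. At day 4 and day 6, Gata4 gave -0.35 and -0.07, Gata6 0.02 and -0.18, and Hnf4a 0.11 and -0.18. Cubn gave -0.34 and -0.44, and Pdgfra 0.43 and -0.27. Krt19 averaged 42.2 in HM1 and 4.76 in CAG150 at day 4 and 50.6 and 2.29 at day 6, and Sox17 63.7 and 37.9 at day 6. Afp, Ttr, Apoa1, Apob, Sox7, Amn and Thbd lay below the filter. These lists move in the same direction as the members do, and their part in the members' differences was not tested. In a bulk RNA sample, fewer cells of a type and less RNA per cell cannot be told apart.

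The neural lists moved otherwise. For the counts in this paragraph as well, 7.92% of all genes were lower and 7.87% higher in CAG150 at day 4, and 11.2% and 10.1% at day 6. Of 20 postmitotic neuron markers, 7 were higher and 4 lower in CAG150 at day 4, and 16 were higher and 0 lower at day 6. Their summed intensity was 5667 to 5884 in HM1 and 4526 to 5069 in CAG150 at day 4, and 17613 to 19878 and 25500 to 26529 at day 6. At day 4 the order of the sums rests on Stmn2, a neuronal tubulin regulator, which averaged 2108 in HM1 and 607 in CAG150. Without it the day 4 sums were 3633 to 3664 in HM1 and 3977 to 4406 in CAG150. For 16 neural progenitor markers the sums were 10393 to 11690 and 12361 to 13038 at day 4, and 17790 to 19083 and 21089 to 21470 at day 6. Of the 16, 4 were higher and 2 lower in CAG150 at day 4, and 4 and 1 at day 6, with medians of 0.07 and 0.06. Without Hes5, a Notch target, and Fabp7, a radial glia protein, the sums were 8671 to 9406 in HM1 and 8470 to 8897 in CAG150 at day 4, and 10043 to 11217 and 11245 to 11897 at day 6. Still in these sums is Zic1, which averaged 181 in HM1 and 1204 in CAG150 at day 6. Pax6, also in them, went the other way, at 1038 and 781. The sums without Zic1 were not computed, so the day 6 order may rest on it. The labels give the source as nervous system, and with time 18 of the 20 neuron markers rose in HM1 and 19 in CAG150, beside 20.4% and 22.5% of all genes. The pluripotency list, in contrast, moved in the same direction as the members. Of 15 tested pluripotency markers, 9 were lower in CAG150 at each day and 0 higher. The sums over all 16 with a probe set were 1988.1 to 2108.5 in HM1 and 725 to 768 in CAG150 at day 4. At day 6 they were 2612 to 2965 and 1201 to 1268. Of 8 tested mesoderm markers, 0 were higher and 1 lower in CAG150 at day 4, and 1 was higher and 2 lower at day 6. The sums over all 15 with a probe set were 256 to 297 and 206 to 265 in the lines at day 4 and 609 to 627 and 276 to 293 at day 6. The day 6 gap is that of Isl1, also known from motor neurons, and Foxc1, without which the sums were 148 to 165 and 162 to 192. Of 4 tested markers of chondrocytes, which are known for Col2a1 and Col11a1, 1 was higher and 0 lower in CAG150 at each day, and Acan, Matn1, Hapln1 and Comp lay below the filter. Of 10 neural crest markers, 3 were higher and 1 lower at day 4, and 3 and 3 at day 6. Of 7 endothelium and blood markers, 2 were lower and 0 higher at each day. Of 6 astrocyte and oligodendrocyte markers 0 passed at day 4, and 2 were higher at day 6. The part of these lists in the members' differences was not tested either.

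Genes of chromosomes 8 and 11 were shifted between the lines as a whole. The median difference, CAG150 minus HM1, over all genes of chromosome 8 was 0.20 at day 4 and 0.24 at day 6, and over those of chromosome 11 it was 0.17 and 0.23, against -0.02 and -0.03 on the other chromosomes. Of the tested members, 7 lie there: Itgb1, Mmp2 and Plat on chromosome 8 and Col1a1, Vtn, Itga3 and Timp2 on chromosome 11. Of these 7, 2 were lower and 0 higher at each day, with medians of 0.06 and -0.17. Of the 28 members on other chromosomes, 7 were lower and 1 higher at day 4, with a median of -0.22, and 14 were lower and 0 higher at day 6, with a median of -0.52. Among all tested genes, 7.92% were lower and 7.87% higher at day 4, and 11.2% and 10.1% at day 6. With each chromosome's median taken off, 8 of all members were lower and 1 higher in CAG150 at day 4, and 18 and 0 at day 6. The calls of Itga3 and Plat between the lines held in that setting. It takes the same amount off every gene of a chromosome, and the part of the shift in any single gene was not tested.

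Fibrillar collagens, the chains of the load-bearing cables, were all tested. Of the 7, 2 were lower in CAG150 at day 4 and 4 at day 6, beside 7.92% and 11.2% of all genes. At either day 0 were higher, beside 7.87% and 10.1%. At day 6 all 7 differences were negative, with a median of -0.60. Over time, 2 rose and 1 fell in HM1, and 0 rose and 2 fell in CAG150. Col1a1, among the 2 rises in HM1 and the 7 negative differences, was above the signal filter only through HM1 at day 6. Its part in these counts thus comes with the choice of tested genes. Among all genes, 20.4% rose and 18.5% fell in HM1, and 22.5% rose and 21.9% fell in CAG150. Col3a1, Col2a1 and Col11a1 are given first.

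Col3a1 encodes the chain of type III collagen, typical of soft and developing connective tissue. Its intensity was 14.5, 25.4 and 8.27 on the HM1 arrays at day 4 and 81.8, 57.2 and 78.6 at day 6, while CAG150 had 14.6, 7.6 and 9.75 at day 4 and 21.4, 12.6 and 16.8 at day 6. The HM1 day 6 arrays stand above all others, and the other 3 groups overlap. The mean rose in HM1 from 16.1 ± 8.65 to 72.5 ± 13.4, a difference of 1.49 ± 0.18 (2.81-fold, adjusted p = 4.5e-05). At day 6 CAG150, at 17 ± 4.43, was lower than HM1, with a difference of -1.42 ± 0.18 (2.68-fold, adjusted p = 0.00015). With 1 or 64 added instead of 16, the 2.68-fold became 4.13-fold or 1.68-fold, and the 2.81-fold 4.66-fold or 1.71-fold. In CAG150 over time the difference was 0.31 (adjusted p = 0.2), and at day 4 between the lines it was -0.24 (adjusted p = 0.42). The day differences of the lines differed by -1.18 ± 0.26 (adjusted p = 0.026). That call was lost with 1 added (adjusted p = 0.15), with no filter (adjusted p = 0.051), and without any of 8 single arrays, where adjusted p reached 0.066. These were replicates 1 and 3 of HM1 and of CAG150 at day 4, replicates 2 and 3 of CAG150 at day 6 and replicates 1 and 3 of HM1 at day 6.

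Col2a1 encodes the type II collagen chain, known from cartilage and also expressed in embryonic neuroepithelium and notochord. It read 303, 270 and 288 in HM1 and 205, 195 and 230 in CAG150 at day 4, and 252, 198 and 280 in HM1 and 111, 152 and 129 in CAG150 at day 6. The lines did not overlap at either day. At day 6 CAG150 was lower, with a difference of -0.82 ± 0.13 (1.76-fold, adjusted p = 0.00076). At day 4 the difference was -0.42 ± 0.13 (adjusted p = 0.043), a call lost under 12 of 23 other settings. Those were no filter, 1 added, the chromosome median taken off, the replicate number as a block, and leaving out any 1 day 4 array, CAG150 day 6 replicate 3 or HM1 day 6 replicate 1, with adjusted p up to 0.13. In CAG150 it fell with time, with a difference of -0.63 ± 0.13 (1.55-fold, adjusted p = 0.0017).

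Col11a1, whose chain of type XI collagen sits in the core of type II fibrils, went the same way. Its intensity was 109, 76.2 and 93.2 in HM1 and 60.1, 69.9 and 64.6 in CAG150 at day 4. The day 6 arrays gave 97.3, 97 and 104 in HM1 and 62.2, 52 and 65.1 in CAG150. At both days every CAG150 array was below every HM1 array. CAG150 was lower, with a difference of -0.61 ± 0.11 at day 6 (1.53-fold, adjusted p = 0.0021) and of -0.42 ± 0.11 at day 4 (1.34-fold, adjusted p = 0.024). The day 4 call was lost in a fit of only the groups compared, and without replicate 1 or 3 of either line at day 4, with adjusted p up to 0.088. It passed in neither line over time.

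Type V collagen starts and thins collagen fibrils. Col5a1 averaged 131 ± 20.4 in HM1 and 81.7 ± 16.5 in CAG150 at day 6, a difference of -0.60 ± 0.15 (adjusted p = 0.015), which was lost with the mean of its probe sets (adjusted p = 0.27) and without CAG150 replicate 1 or HM1 replicate 3 of day 6. Col5a2 passed in no comparison, with group means between 27.9 and 36.6.

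Type I collagen, the main collagen of most connective tissue, was not called between the lines. Col1a2 was 61.4, 67.5 and 71 in HM1 and 90.2, 74.1 and 73.3 in CAG150 at day 4, and 35.2, 47.5 and 49.2 in HM1 and 27.9, 35.3 and 37.6 in CAG150 at day 6. All day 6 arrays lie below all day 4 arrays. It fell, with a difference of -0.94 ± 0.12 in CAG150 (1.92-fold, adjusted p = 3.7e-05) and of -0.47 ± 0.12 in HM1 (1.38-fold, adjusted p = 0.007), the latter lost with the mean of its probe sets (adjusted p = 0.47). A further probe set of Col1a2 did pass between the lines, at 0.53 at day 4 and -0.51 at day 6, where the brightest gave 0.20 and -0.27 (adjusted p = 0.28 and 0.12). Col1a1 was dim, with means between 9.53 and 16.8, 2 of them under the filter's intensity of 11.9. It was above the filter only through HM1 at day 6. In HM1 it rose by 0.36 ± 0.12 (adjusted p = 0.029), a call lost under 5 other settings, and without HM1 day 4 replicate 1 or 2 or HM1 day 6 replicate 3.

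Among the other collagens, Col18a1 had the smallest adjusted p of any member in the comparison over time in either line. It encodes type XVIII collagen, a basement membrane proteoglycan whose end piece is endostatin. The arrays read 936, 975 and 904 in HM1 and 496, 549 and 555 in CAG150 at day 4. Day 6 values were 401, 402 and 457 in HM1 and 185, 200 and 213 in CAG150. None of the 4 groups overlaps another: HM1 at day 4 is highest and CAG150 at day 6 lowest. CAG150 was lower, with a difference of -0.80 ± 0.09 at day 4 (1.74-fold, adjusted p = 5.8e-05) and of -1.02 ± 0.09 at day 6 (2.03-fold, adjusted p = 5.4e-06). With time it fell, with a difference of -1.13 ± 0.09 in HM1 (2.19-fold, adjusted p = 8.7e-07) and of -1.35 ± 0.09 in CAG150 (2.55-fold, adjusted p = 1.3e-07). The day differences were not called different, at -0.22 (adjusted p = 0.42). All 4 calls held under each of the 23 other settings run.

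Col12a1, a fibril-associated collagen, averaged 8.91 ± 6.34 in HM1 at day 4 and 28.5 ± 12.3 at day 6. The difference of 0.83 ± 0.30 (adjusted p = 0.044) was lost under 11 of 21 other settings, among them both other scalings of the arrays and the fit without any single one of 7 arrays (HM1 day 4 replicates 1 and 2, CAG150 day 4 replicate 1, CAG150 day 6 replicates 1 and 3, HM1 day 6 replicates 1 and 2). Col6a2, a chain of the beaded filaments, had means of 22.5 to 27.6 and passed in no comparison, though a further probe set of Col6a2 fell in HM1, at -0.80. Col6a1 (5.81 to 18.5 over the 12 arrays) and Col9a1 (1.94 to 24.5) were below the filter and not tested.

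**Figure D2:**
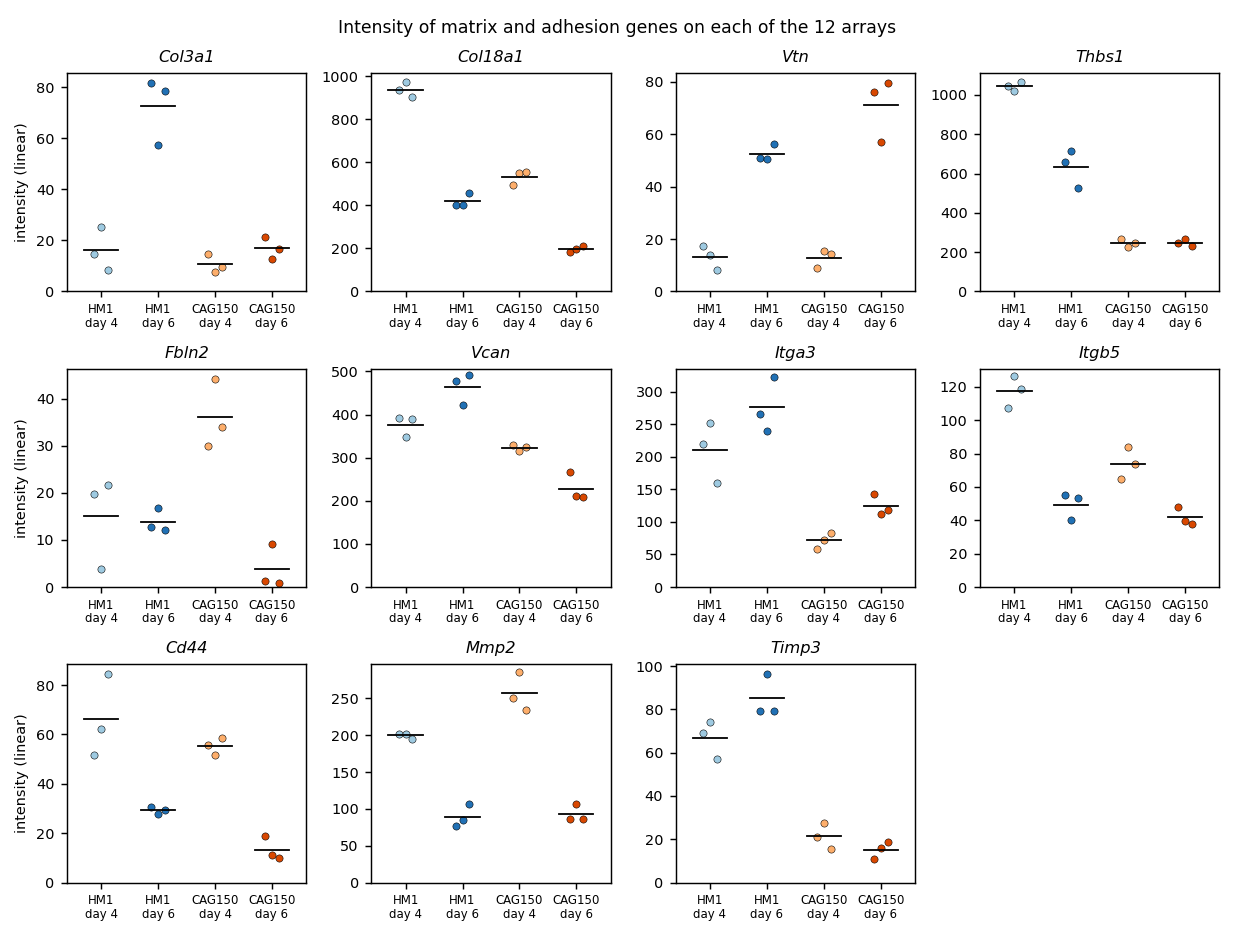
Intensity on each of the 12 arrays, on a linear axis from 0, of 11 members given array by array in the text, with 3 points per group and a bar at the group mean. For Thbs1, Itga3, Timp3 and Col18a1 the CAG150 points lie below the HM1 points of the same day.

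Of the adhesive and matricellular glycoproteins, 5 were tested, and 2 of them, Thbs1 and Fn1, were lower in CAG150 at both days, beside 4.63% of all genes. Thbs1 binds cells and matrix and can activate latent TGF-beta. It read 1044, 1022 and 1068 in HM1 at day 4 and 266, 225 and 247 in CAG150. At day 6 it read 661, 713 and 525 in HM1 and 247, 265 and 233 in CAG150. HM1 was above CAG150 on every array, and its day 6 arrays lay between its day 4 arrays and those of CAG150. The difference of -2.02 ± 0.11 at day 4 (4.05-fold, adjusted p = 1.9e-07) was the largest of any member in that comparison. The day 6 difference was -1.29 ± 0.11 (2.44-fold, adjusted p = 5.2e-06). Thbs1 fell in HM1 with time, with a difference of -0.72 ± 0.11 (1.65-fold, adjusted p = 0.00025), while in CAG150 the difference was 0.01 (adjusted p = 0.94). The day differences differed by 0.73 ± 0.16 (adjusted p = 0.022), a call lost with the mean of its probe sets (adjusted p = 0.054) and without HM1 day 4 replicate 3, CAG150 day 4 replicate 2 or CAG150 day 6 replicate 2, with adjusted p up to 0.059. Its other probe set gave -1.70 at day 4 and -1.20 at day 6, and both passed.

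Fn1 encodes fibronectin, the glycoprotein that joins collagen, integrins and other matrix. The brightest probe set read 1299, 1147 and 1044 in HM1 and 686, 718 and 752 in CAG150 at day 4. By day 6 it read 1270, 1214 and 1433 in HM1 and 778, 881 and 876 in CAG150. The lines are apart on all arrays, and the days overlap in HM1. CAG150 was lower, with a difference of -0.68 ± 0.10 at day 4 (1.6-fold, adjusted p = 0.00066) and of -0.62 ± 0.10 at day 6 (1.53-fold, adjusted p = 0.00094). Another probe set of Fn1 above the filter gave -0.38 at day 4 and 0.00 at day 6 and passed at neither. Over time Fn1 passed in neither line, at 0.17 in HM1 (adjusted p = 0.22) and 0.23 in CAG150 (adjusted p = 0.085).

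Vtn, vitronectin, a ligand of the alpha V integrins, had the largest rise of any member with time in CAG150. Its intensity was 17.4, 14 and 8.22 in HM1 at day 4 and 50.8, 50.5 and 56.2 at day 6. In CAG150 it was 8.91, 15.4 and 14.5 at day 4 and 76.2, 57.2 and 79.7 at day 6. The days were apart in both lines, and at day 6 every CAG150 array was above every HM1 array. The rise was 1.24 ± 0.14 in HM1 (2.37-fold, adjusted p = 1.9e-05) and 1.59 ± 0.14 in CAG150 (3-fold, adjusted p = 1.8e-06), and these folds moved by more than 1.5 times with 1 or 64 added. The difference between the lines at day 6, 0.34 ± 0.14, did not pass (adjusted p = 0.11), nor did that at day 4, -0.01 (adjusted p = 0.98).

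Thbs2, thrombospondin-2, rose in HM1 from 11.9 ± 2.22 to 28.8 ± 14.8, by 0.64 ± 0.17 (1.56-fold, adjusted p = 0.0094). One HM1 day 6 array, replicate 3 at 45.9, was higher than the others, at 20.4 and 20.1. Without it the rise was 0.38, and the call held. Between the lines at day 6 Thbs2 gave -0.41 (adjusted p = 0.11). Tnc, tenascin-C, known from radial glia and neural crest, passed in no comparison, with means of 7.34 to 23.1, and was above the filter only through HM1 at day 6. Postn, periostin, was below the filter by its mean over all arrays and not tested. It read 22.2, 29.5 and 25.2 in HM1 at day 6 and 1.26 to 9.81 on all other arrays.

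Fibulins and fibrillins are the glycoproteins of elastic fibres and microfibrils. Of the 3 tested, all fell with time in CAG150, and 2 fell in HM1, beside 21.9% and 18.5% of all genes. The CAG150 count holds Fbln2, which was above the signal filter only through CAG150 at day 4. Its fall thus comes with the choice of tested genes. Fbln1 read 389, 352 and 411 in HM1 and 344, 345 and 310 in CAG150 at day 4, and 282, 257 and 340 in HM1 and 176, 212 and 238 in CAG150 at day 6. It fell, with a difference of -0.64 ± 0.12 in CAG150 (1.56-fold, adjusted p = 0.00094) and of -0.38 ± 0.12 in HM1 (1.3-fold, adjusted p = 0.027). At day 6 it was lower in CAG150, with a difference of -0.46 ± 0.12 (1.38-fold, adjusted p = 0.017), and at day 4, where the lines did not overlap either, the difference of -0.20 did not pass. The HM1 call was lost without any 1 of HM1 day 4 replicates 1 and 3 and HM1 day 6 replicates 1 and 2. The day 6 call was lost with the mean of its probe sets (adjusted p = 0.32), in a fit of only the groups compared, and without CAG150 replicate 1 or HM1 replicate 3 of day 6.

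Fbn2, the fibrillin of embryonic microfibrils, fell by like amounts in both lines. It went from 194 ± 5.83 to 135 ± 13.8 in HM1, with a difference of -0.48 ± 0.09 (1.39-fold, adjusted p = 0.0011). In CAG150 it went from 183 ± 11.2 to 124 ± 8.53, with a difference of -0.50 ± 0.09 (1.42-fold, adjusted p = 0.00055). It did not pass between the lines at either day.

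Fbln2 was the only tested member that passed as higher in CAG150 in either comparison between the lines. It read 19.7, 3.83 and 21.8 in HM1 and 30.1, 44.3 and 34.1 in CAG150 at day 4. Day 6 values were 12.7, 16.7 and 12.1 in HM1 and 1.33, 9.06 and 0.907 in CAG150. CAG150 was thus above HM1 at day 4 and below it at day 6, with no overlap at either. Fbln2 was above the signal filter only through CAG150 at day 4, so that the calls below come with the choice of tested genes, and they are given as a description. The day 4 difference was 0.79 ± 0.22 (1.73-fold, adjusted p = 0.029), and that at day 6, -0.61, did not pass (adjusted p = 0.069). Fbln2 fell in CAG150, with a difference of -1.42 ± 0.22 (2.67-fold, adjusted p = 0.00023), which became 10.3-fold or 1.48-fold with 1 or 64 added, and in HM1 it gave -0.01 (adjusted p = 0.98). The day differences differed by -1.41 ± 0.31 (adjusted p = 0.028), a call lost under 10 of 20 other settings, among them 1 added (adjusted p = 0.085). The day 4 call was lost under 7 of 21, 1 added among them (adjusted p = 0.17). Single arrays ended the day 4 call (HM1 replicate 2, CAG150 replicates 2 and 3) and that of the day differences (CAG150 day 4 replicates 2 and 3, CAG150 day 6 replicates 1 and 3, and each HM1 day 6 array).

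Versican, encoded by Vcan, is a large chondroitin sulphate proteoglycan of embryonic matrix that shapes the paths of migrating neural crest cells and axons. It read 392, 347 and 389 in HM1 and 329, 315 and 324 in CAG150 at day 4. At day 6 it read 479, 422 and 492 in HM1 and 266, 210 and 209 in CAG150. The lines did not overlap at either day, and they moved apart. CAG150 was lower, with a difference of -0.98 ± 0.10 at day 6 (1.97-fold, adjusted p = 2.8e-05), while the day 4 difference of -0.21 did not pass (adjusted p = 0.19). Vcan rose in HM1 by 0.29 ± 0.10 (1.22-fold, adjusted p = 0.039) and fell in CAG150, with a difference of -0.48 ± 0.10 (1.39-fold, adjusted p = 0.0022). The day differences differed by -0.77 ± 0.15 (adjusted p = 0.011), which held in each fit without 1 array and was lost with the mean of its probe sets (adjusted p = 0.11). The rise in HM1 was lost under 11 of 23 other settings, median centring (adjusted p = 0.21) and the fits without HM1 day 4 replicate 1, 2 or 3, CAG150 day 4 replicate 2 or HM1 day 6 replicate 1 or 3 among them. Both further probe sets of Vcan passed as lower at day 6 (-0.92 and -0.65) and as falling in CAG150 (-0.76 for each), while in HM1 they gave 0.09 and -0.07 and did not pass. Lum (0.859 to 13.5) and Bgn (1.51 to 17.9), small proteoglycans of connective tissue, were below the filter.

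**Figure D3:**
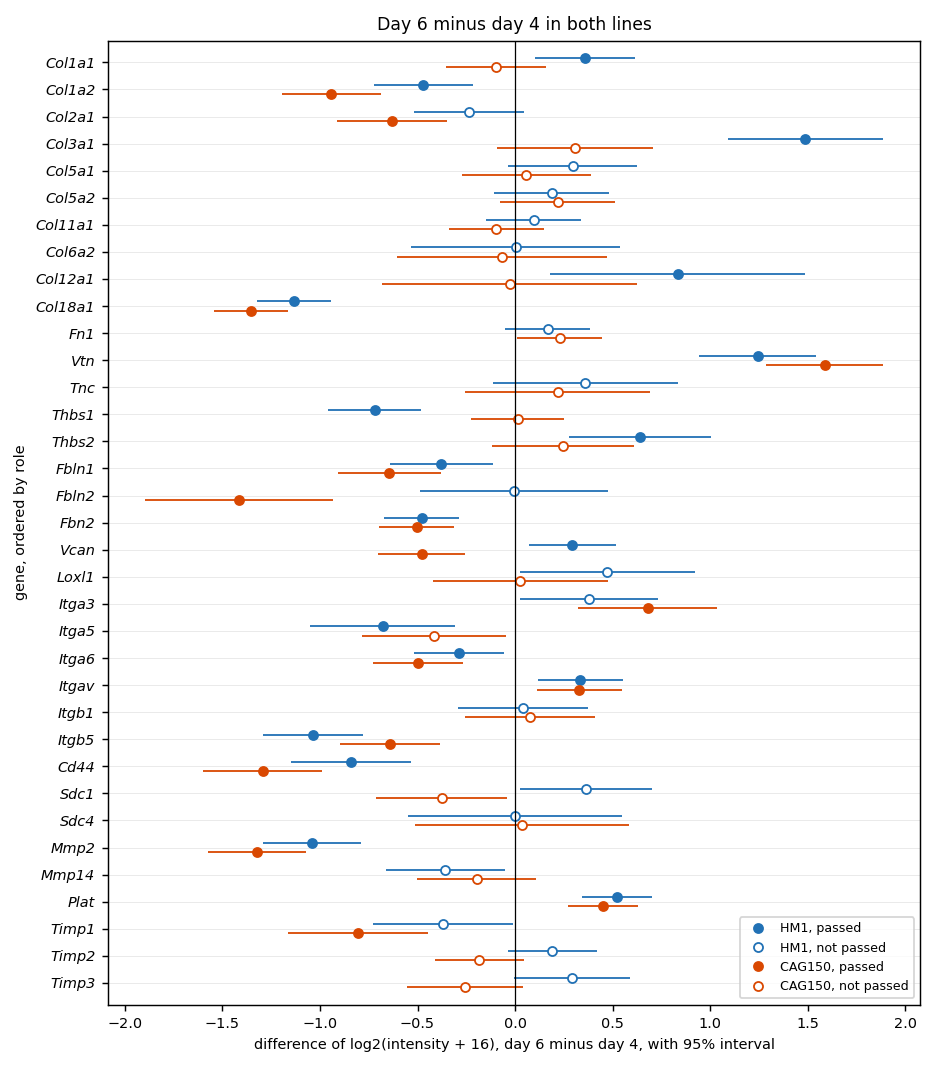
The difference of log2(intensity + 16), day 6 minus day 4, of each tested member in HM1 and in CAG150, with its 95% interval; filled points passed the test. Vtn, Itgav and Plat are filled to the right in both lines, while Vcan is filled right of 0 in HM1 and left of 0 in CAG150.

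Lysyl oxidases cross-link collagen and elastin. Loxl1, the tested one, had means of 29.2 and 46.5 in HM1 and of 27.8 at both days in CAG150, and passed in no comparison (-0.51 at day 6, adjusted p = 0.1). Lox, at 1.73 to 14 over the 12 arrays, was not tested.

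Integrins are pairs of an alpha and a beta subunit that bind matrix outside and the actin cytoskeleton inside the cell. Of 6 tested, 2 were lower in CAG150 at day 4 and 2 at day 6, and 0 were higher, in a background of 7.92% and 11.2% lower and 7.87% and 10.1% higher. Itga3 pairs with beta 1 and binds laminins. It read 219, 252 and 160 in HM1 and 58.9, 72.8 and 83.4 in CAG150 at day 4, and 266, 240 and 322 in HM1 and 143, 112 and 118 in CAG150 at day 6. Every CAG150 array was below every HM1 array, at both days. CAG150 was lower, with a difference of -1.36 ± 0.16 at day 4 (2.56-fold, adjusted p = 0.00012) and of -1.06 ± 0.16 at day 6 (2.08-fold, adjusted p = 0.00061). The other pair of its probe sets gave -1.39 and -0.70 at day 4, the first of which passed, and -1.58 and -1.40 at day 6, which both passed. With time Itga3 rose in CAG150 by 0.68 ± 0.16 (1.6-fold, adjusted p = 0.0046), and in HM1 the difference was 0.38 (adjusted p = 0.084). Itga3 lies on chromosome 11, whose genes were on the whole shifted the other way, toward CAG150.

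Itgb5, which pairs with alpha V as a vitronectin receptor, was 108, 126 and 118 in HM1 and 64.5, 84.1 and 73.5 in CAG150 at day 4. On day 6 the array values were 54.9, 40 and 53.1 in HM1 and 47.9, 39.5 and 37.7 in CAG150. The lines were apart at day 4 and overlapped at day 6. It was lower in CAG150, with a difference of -0.57 ± 0.12 at day 4 (1.49-fold, adjusted p = 0.006), and at day 6 the difference was -0.17 (adjusted p = 0.33). It fell with time, with a difference of -1.04 ± 0.12 in HM1 (2.05-fold, adjusted p = 2.2e-05) and of -0.64 ± 0.12 in CAG150 (1.56-fold, adjusted p = 0.00075). The lines' day differences were not called different (0.40, adjusted p = 0.25). Further probe sets of Itgb5 varied. In CAG150, 1 read 52.9, 54 and 65.6 at day 4 and 58.8, 47.8 and 50.7 at day 6, so its days overlapped. Another read 54.7, 64.4 and 65.95, then 21.9, 34.6 and 25. The last was higher in CAG150 at day 6, at 27.7, 27.3 and 31.7, against 22.4, 27.1 and 12.9 in HM1. Itgav, the partner of Itgb5, rose, by 0.33 ± 0.10 in each line, from 343 ± 35.5 to 435 ± 18 in HM1 (adjusted p = 0.019) and from 309 ± 36.4 to 391 ± 16.5 in CAG150 (adjusted p = 0.018). Both rises were lost with median centring (adjusted p = 0.12 each). The HM1 rise was also lost without HM1 day 4 replicate 2 or HM1 day 6 replicate 3, and the CAG150 rise without CAG150 day 4 replicate 1 or 2 or CAG150 day 6 replicate 1 and with the mean of its probe sets.

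Itga6, the laminin-binding partner of beta 1 and beta 4 known from stem and progenitor cells, fell in CAG150 from 318 ± 44.9 to 220 ± 16, with a difference of -0.50 ± 0.11 (1.41-fold, adjusted p = 0.0022). In HM1 it fell from 380 ± 14.1 to 309 ± 27.4, with a difference of -0.29 ± 0.11 (1.22-fold, adjusted p = 0.047). The HM1 call was lost under 10 of 23 other settings, 8 of them fits without 1 array: each HM1 day 4 array, CAG150 day 4 replicate 2, CAG150 day 6 replicates 1 and 3 and HM1 day 6 replicates 1 and 2. At day 6 Itga6 was lower in CAG150, with a difference of -0.46 ± 0.11 (1.38-fold, adjusted p = 0.0082). Itga5, the alpha chain of the classical fibronectin receptor, fell in HM1 from 63.3 ± 11.3 to 33.8 ± 9.35, with a difference of -0.68 ± 0.17 (1.6-fold, adjusted p = 0.0072). In CAG150 its difference was -0.42 (adjusted p = 0.065), and between the lines at day 4 it was -0.50 (adjusted p = 0.067). Itgb1, the shared beta chain of most matrix integrins, passed in no comparison, with group means of 636 to 694 and differences between the lines of 0.06 and 0.09. Itga1 (0.319 to 13.1) and Itgb3 (0.924 to 2.62) were below the filter.

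The cell surface proteoglycans and the hyaluronan receptor Cd44 did not pass between the lines at day 4. Of these 3, 2 were lower in CAG150 at day 6, beside 11.2% of all genes. Cd44 read 51.6, 62.3 and 84.7 in HM1 and 55.9, 51.9 and 58.5 in CAG150 at day 4. By day 6 it read 30.6, 27.8 and 29.4 in HM1 and 19, 11.2 and 9.9 in CAG150. The day 4 arrays of the lines overlap, the days are apart, and at day 6 the CAG150 arrays are the lowest. Cd44 fell, with a difference of -0.84 ± 0.14 in HM1 (1.79-fold, adjusted p = 0.00051) and of -1.29 ± 0.14 in CAG150 (2.45-fold, adjusted p = 1.2e-05). At day 6 it was lower in CAG150, with a difference of -0.64 ± 0.14 (1.55-fold, adjusted p = 0.0068), a call lost with the mean of its probe sets (adjusted p = 0.09). The 2.45-fold fall became 4.07-fold or 1.55-fold with 1 or 64 added, and 1.58-fold with the mean of its probe sets (-0.66, adjusted p = 6.6e-05).

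Sdc1, syndecan-1, a heparan sulphate proteoglycan of epithelia, was 769, 948 and 796 in HM1 and 463, 541 and 509 in CAG150 at day 6, with no overlap. It was lower in CAG150, with a difference of -0.71 ± 0.16 (1.64-fold, adjusted p = 0.006). At day 4 the lines overlapped, at 656, 709 and 576 in HM1 and 747, 773 and 493 in CAG150. All 3 further probe sets of Sdc1 passed as lower at day 6, at -0.40, -0.37 and -0.47. At day 4 they gave -0.25, which passed, -0.19 and 0.27, which did not, where the brightest gave 0.03. The last of these sets also rose in HM1, by 0.47, and passed for the difference of the day differences, at -0.74. With the brightest set the lines' day differences did not pass as different (-0.74, adjusted p = 0.094). Sdc4, syndecan-4, a focal adhesion component, passed in no comparison with its brightest probe set, with means of 132 to 166. A further probe set of Sdc4 was lower in CAG150 at day 6, at -0.70 (adjusted p = 0.01), and gave -0.51 at day 4 (adjusted p = 0.057).

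Of the matrix proteases, Mmp2 (gelatinase A), Mmp14 (its membrane-bound activator) and Plat (tissue plasminogen activator) were tested. Mmp2 was 201, 202 and 195 in HM1 and 250, 286 and 235 in CAG150 at day 4. Day 6 values were 77, 84.7 and 107 in HM1 and 86.3, 107 and 86.7 in CAG150. All day 6 arrays were below all day 4 arrays, and at day 4 the CAG150 arrays were above those of HM1. The fall with time was -1.04 ± 0.12 in HM1 (2.06-fold, adjusted p = 1.9e-05) and -1.32 ± 0.12 in CAG150 (2.5-fold, adjusted p = 1.9e-06). Between the lines at day 4 the difference of 0.34 did not pass (adjusted p = 0.07). Mmp2 lies on chromosome 8, whose genes had a median difference of 0.20 in the same direction. Mmp14 passed in no comparison, with means of 46.9 to 64.7.

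Plat, whose product also acts on neurons and migrating neural cells, ran the other way over time. It read 434, 383 and 437 in HM1 and 338, 313 and 351 in CAG150 at day 4, and 612, 580 and 631 in HM1 and 447, 470 and 471 in CAG150 at day 6. The lines were apart at each day and the days in each line. Plat rose by 0.52 ± 0.08 in HM1 (1.44-fold, adjusted p = 0.00032) and by 0.45 ± 0.08 in CAG150 (1.37-fold, adjusted p = 0.00072). It was lower in CAG150, with a difference of -0.38 ± 0.08 at day 6 (1.3-fold, adjusted p = 0.0059) and of -0.31 ± 0.08 at day 4 (1.24-fold, adjusted p = 0.023). The day 4 call was lost with the mean of its probe sets (adjusted p = 0.47), in a fit of only the groups compared, and without HM1 replicate 1 or 3 or CAG150 replicate 1 or 2 of day 4. Plau, the urokinase-type activator, was between 2.08 and 14.7 and not tested.

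Of the TIMPs, Timp3 had the lowest adjusted p of all members at day 6. Timp3 stays bound to the matrix and inhibits metalloproteinases and several ADAM sheddases. It read 68.9, 74.2 and 57 in HM1 and 21, 27.5 and 15.6 in CAG150 at day 4. At day 6 it read 79.2, 96.5 and 79.4 in HM1 and 10.8, 16.1 and 18.6 in CAG150. Every CAG150 array was below every HM1 array. CAG150 was lower, with a difference of -1.15 ± 0.14 at day 4 (2.22-fold, adjusted p = 0.00011) and of -1.70 ± 0.14 at day 6 (3.25-fold, adjusted p = 3e-06), the latter fold moving by more than 1.5 times with 1 or 64 added. Its 3 further probe sets passed too, at -0.99, -1.06 and -1.67 at day 4 and -0.98, -1.22 and -1.79 at day 6. The gene lies within Syn3 on chromosome 10. It passed in neither line over time.

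Timp1, a secreted inhibitor, was lower in CAG150 at day 6, at 38, 19.8 and 21.8, against 39.7, 52.9 and 59.3 in HM1. The difference was -0.66 ± 0.16 (1.58-fold, adjusted p = 0.013), lost without CAG150 replicate 2 or 3 or HM1 replicate 3 of day 6, with adjusted p up to 0.054. In CAG150 it fell with time, with a difference of -0.81 ± 0.16 (1.75-fold, adjusted p = 0.0016). Timp2, which also takes part in the activation of Mmp2, passed in no comparison with its brightest probe set, at means of 279 to 325. Its probe sets disagreed. At day 4, a pair of further sets was higher in CAG150, by 0.68 (adjusted p = 0.0012) and 0.63 (adjusted p = 0.018), where the brightest gave 0.21, and at day 6 the first of them was higher by 0.51, where the brightest gave -0.17. In HM1, 3 further sets rose with time, by 0.60, 0.55 and 0.72, where the brightest gave 0.19. In CAG150, the last 2 of these rose by 0.39 and 0.59, where the brightest gave -0.18.

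Across the members, further probe sets mostly moved with the brightest. Of the 10 members that passed at day 4, 8 had 13 further probe sets above the filter, of which 12 had the same sign and 9 passed. At day 6, 13 of 16 had 20, of which 18 had the same sign and 12 passed. For the difference of the day differences, 2 of 4 had 3, of which 3 had the same sign and 0 passed. In no comparison did a further probe set of a member that passed go past the threshold in the opposite direction. These counts are over 23082 probe sets tested.

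Other genes of the same pathways were followed on 7 lists of their own. These lists are not fully separate, since Col4a1, Col4a2 and Col15a1 are on both the basement membrane list and that of other collagens. At day 6 more genes were lower than higher in CAG150 on each of the 7, and at day 4 on 4 of them, where 7.92% of all genes were lower and 7.87% higher at day 4, and 11.2% and 10.1% at day 6. Of 16 basement membrane genes tested, 8 were lower and 1 higher at day 4, and 9 and 1 at day 6, with medians of -0.49 and -0.78. Sparc, a collagen-binding matricellular protein, averaged 1421 ± 78.1 in HM1 and 477 ± 27.4 in CAG150 at day 4, a difference of -1.54 ± 0.09 (adjusted p = 3.1e-07). Lamb1, the laminin beta 1 chain, averaged 499 ± 23.2 in HM1 and 148 ± 15.9 in CAG150 at day 6, a difference of -1.65 ± 0.09 (adjusted p = 1.1e-07). Sparc and Lamb1 are also on the endoderm marker list. Of 24 other integrin and adhesion genes, 9 were lower and 1 higher at day 4, and 11 and 0 at day 6, with medians of -0.23 and -0.35. Vcl, vinculin, averaged, at day 4, 1243 ± 156 in HM1 and 569 ± 44 in CAG150 (-1.10 ± 0.10, adjusted p = 1.7e-05). Itga8, an integrin chain known from kidney and mesenchyme, averaged 134 ± 2.57 and 47.2 ± 9.47 (-1.26 ± 0.13, adjusted p = 2.9e-05).

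**Figure D4:**
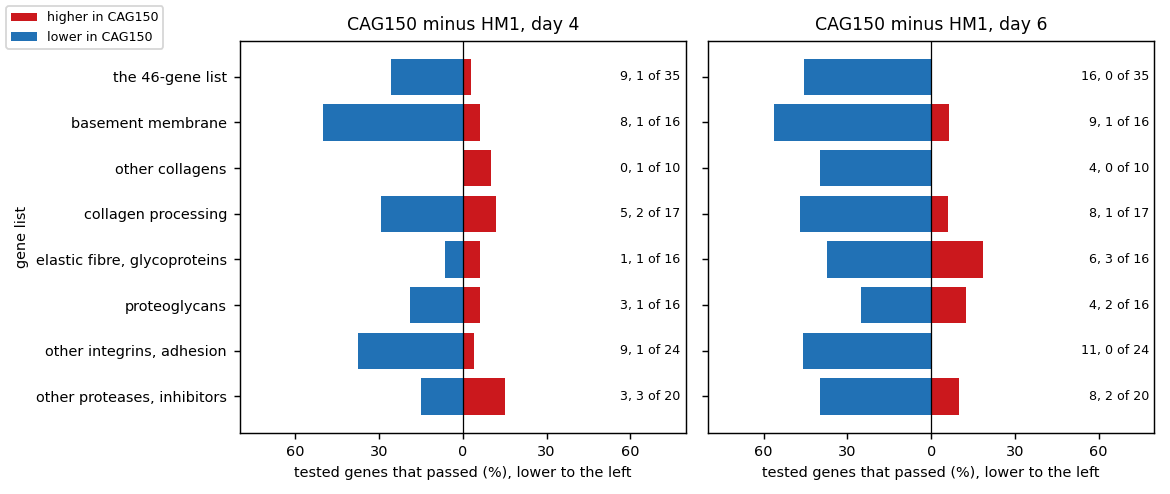
The percentage of the tested genes of each list that passed as lower (left) or higher (right) in CAG150, at day 4 and at day 6, with the counts lower, higher and tested beside each bar. The basement membrane list has 8 and 9 of 16 lower, and the members 9 and 16 of 35.

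Of 17 genes of collagen processing, 5 were lower and 2 higher at day 4, and 8 and 1 at day 6. At day 6 Pcolce, which enhances the trimming of procollagen, averaged 108 ± 19.5 in HM1 and 14.5 ± 5.02 in CAG150 (-2.03 ± 0.14, 4.08-fold, adjusted p = 6.8e-07), while Serpinh1, the collagen chaperone, averaged 1609 ± 125 and 882 ± 88.9 (-0.86 ± 0.09, adjusted p = 4e-05). P3h2, a prolyl 3-hydroxylase of collagen, averaged 71.4 ± 6.98 and 24.6 ± 9.59 at day 6 (-1.13 ± 0.16, adjusted p = 0.00026). Adamts3, a procollagen protease, was among those higher at day 4, at 92.7 ± 19.3 in CAG150 and 45.8 ± 1.26 in HM1 (0.80 ± 0.13, adjusted p = 0.00096). Of 10 other collagen genes, 0 were lower and 1 higher at day 4, and 4 and 0 at day 6. Col8a1, a short-chain collagen, read on average, by day 6, 83.8 ± 16 in HM1 and 14.2 ± 9.62 in CAG150 (-1.76 ± 0.22, adjusted p = 0.00012). Of 16 other proteoglycan genes, 3 were lower and 1 higher at day 4, and 4 and 2 at day 6. Gpc4, a glypican of neural progenitors, averaged 760 ± 96 in HM1 and 179 ± 20.8 in CAG150 at day 4, a difference of -1.99 ± 0.12 (3.98-fold, adjusted p = 3.1e-07). Of 16 elastic fibre and other glycoprotein genes, 1 was lower and 1 higher at day 4, and 6 and 3 at day 6. Among these Ccn1 averaged 359 ± 27.8 in HM1 and 120 ± 22.8 in CAG150 at day 4, and Ccn2, a connective tissue growth factor, 1515 ± 115 and 626 ± 37.4 at day 6. Of 20 other proteases and inhibitors, 3 were lower and 3 higher at day 4, and 8 and 2 at day 6.

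Over time, 7 of the 16 basement membrane genes rose and 3 fell in HM1, and 2 rose and 3 fell in CAG150. Among all genes, 20.4% rose and 18.5% fell in HM1, and 22.5% rose and 21.9% fell in CAG150. Col4a1, a chain of the type IV collagen network, rose in HM1 by 0.98 ± 0.09 (adjusted p = 5.5e-06), from 482 to 969, while its CAG150 means were 499.8 and 481. Of the 16 proteoglycan genes, 8 rose and 3 fell in HM1, and 6 rose and 5 fell in CAG150. Of the 24 integrin and adhesion genes, 5 rose and 5 fell in HM1, and 6 rose and 9 fell in CAG150. Itgb8, an integrin chain expressed by neuroepithelium and glia, rose in both, by 1.26 ± 0.14 in HM1 (adjusted p = 1.6e-05) and by 1.45 ± 0.14 in CAG150 (adjusted p = 3.6e-06).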

How the data were processed

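Gene expression was measured on 12 Affymetrix arrays. Deposited were linear intensities. As read from the values, the authors scaled each array to a mean of 150, leaving out the highest and lowest 2% of its probe sets. The software used was not given in the sources read. Median intensities were 19.2 to 25.9 per array. Of 45101 probe sets, 64 controls were left out, 34945 have 1 gene symbol, 932 several and 9160 none here. Entrez identifiers tied the symbols to a RefSeq gene table of GRCm38.p6 (34741 matched, 0 changed), also used for chromosomes.

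Values were taken as log2(intensity + 16), with the brightest probe set per gene and a filter at the 40th percentile (4.8 on the log2 scale, intensity 11.9), which left 12280 genes. The deposited values were normalized no further. One model with a mean per group covered the 12 arrays (limma 3.58.1, R 4.3.3; 8 residual and 4.46 prior degrees of freedom), and 5 comparisons were tested, each adjusted by Benjamini-Hochberg over all genes. The fit was tested on simulated data. The members, lists, tests and alternatives were chosen with earlier results of these data known. The text gives every member, and names genes of other pathway lists among the 3 that passed with the largest differences. Marker sums add the intensities of all markers with a probe set, and the markers named in those sums or left out of them were chosen after their values were seen.

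Replicate numbers were checked for pairing and did not pair the samples. Alternatives were other normalizations, filters and pseudocounts (1 and 64), the mean of probe sets, chromosome medians taken off, chromosomes 8, 11 and Y left out, a replicate block, a fit of only the groups compared, and each array left out.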

Additional observations from a re-analysis of the deposited data

Results flagged for a closer look

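For 4 members the difference between day 6 and day 4 was called different between the lines, by the test of the difference itself (limma, adjusted over 12280 genes, 3 arrays a group). It was -1.41 for Fbln2 (adjusted p = 0.028), -1.18 for Col3a1 (adjusted p = 0.026), -0.77 for Vcan (adjusted p = 0.011) and 0.73 for Thbs1 (adjusted p = 0.022), as CAG150 minus HM1. Fbln2 fell in CAG150 and was above the signal filter only through CAG150 at day 4, and Col3a1 rose in HM1, both with 1 group below the filter's intensity of 11.9. Vcan fell in CAG150, while its rise in HM1 was lost under 11 of 23 other settings and was 0.09 and -0.07 by its further probe sets. Thbs1 fell in HM1. Among the other settings run, the call of the difference held under 10 of 20 for Fbln2 and 11 of 21 for Col3a1. It held under 18 of 22 for Thbs1 and 21 of 22 for Vcan, where it was lost with the mean of probe sets (adjusted p = 0.11). The 3 further probe sets of Thbs1 and Vcan above the filter had the same sign, and 0 of them passed for this difference. No explanation was tested.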

How the results depend on the processing

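Of the 64 calls of members in the 5 comparisons, 44 held under every alternative that gave a value, 20 were lost under at least 1, and 0 changed direction. The alternatives were 11 settings and 12 fits without 1 array.

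For day 4, the 1 member higher in CAG150 became 0 with no filter, with a pseudocount of 1, with the replicate block and in a fit of only the groups compared, and 2 with a pseudocount of 64. For HM1 over time, the 8 that rose became 4 with median centring, 3 with a filter at the 60th percentile and 5 without chromosomes 8, 11 and Y. Of these 8, 3 (Col1a1, Plat and Vtn) lie on 8 and 11. Without those chromosomes the 4 that rose in CAG150 became 1, since 3 of them lie there. For the difference of the day differences, the 1 positive call became 0 with the mean of probe sets, and the 3 negative calls became 1 with the 60th percentile and 1 with a pseudocount of 1. The cause of the other moves was not tested.

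With each array left out in turn, day 4 gave 0 to 2 higher and 6 to 10 lower members, day 6 gave 0 to 1 and 13 to 17, HM1 over time gave 5 to 9 rises and 8 to 10 falls, CAG150 3 to 5 and 12 to 13, and the difference of day differences 0 to 1 positive and 1 to 3 negative. The 1 higher member of day 4 became 0 without HM1 replicate 2 or CAG150 replicate 2 or 3 of day 4, and 2 without HM1 day 6 replicate 3. The 8 rises in HM1 became 5 without HM1 day 4 replicate 1 or HM1 day 6 replicate 3.

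Samples with the same replicate number did not deviate together (correlations of -0.13 to 0.12, against -0.16 to 0.22 for different numbers), and 5 of 12 arrays matched best with their own number. With the replicate block, day 4 gave 0 higher and 8 lower members, day 6 gave 0 and 17, HM1 over time 10 and 10, CAG150 4 and 13, and the difference of day differences 1 and 2.

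Signal limits the dim members. For Col1a1, Col3a1, Col12a1, Thbs2, Fbln2 and Tnc at least 1 group lay below the filter's intensity, and 9 members were not tested at all.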
